A study of Mus musculus with 6 samples.

Results

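Genes that store, import, export and sense iron, together with the copper transporters *Atp7a* and *Slc31a1*, were followed across 6 RNA-seq libraries of sorted mouse kidney cells. The members were chosen by name, and in part because *Atp7a* was near 0 in all *Trf1*+/+ libraries. Of the 10 genes named, 9 had a row among the 12125 genes listed, and *Atp7b*, the copper ATPase related to *Atp7a*, was not analysed here. Of these 9 genes, 8 passed the filter for a test, a value of 10 or more normalized counts in 3 or more libraries, and *Ireb2* missed it. *Atp7a* passed the filter only through the group in which it is high, and since it was chosen for that pattern it is described here without a test. The remaining 7 genes were compared between the genotypes.

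The libraries came from 3 *Trf1*+/+ and 3 *Trf1*flox/flox mice. TRF1, encoded by *Terf1*, is a protein of the shelterin complex that protects telomeres. Mice of both genotypes also carried Col1a2-CreERT2, a Cre recombinase that tamoxifen activates and that the Col1a2 promoter directs to collagen-producing cells, and a Cre-dependent reporter of the Katushka fluorescent protein (KFP). Male and female mice were 6 to 8 weeks old at the start and received tamoxifen into the peritoneum 3 times a week for 8 weeks, so the controls had the Cre, the reporter and the drug as well, and 500 cells per sample were sorted with CD29, a surface integrin, and KFP and amplified into non-stranded libraries. Each library is taken as 1 mouse, and replicates are numbered 1 to 3 within a genotype without pairing any mice.

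Cells hold a small pool of reactive iron between transferrin receptor uptake (*Tfrc*), ferritin storage (*Fth1*, *Ftl1*) and ferroportin export (*Slc40a1*). When iron is scarce, the iron regulatory proteins IRP1 (*Aco1*) and IRP2 (*Ireb2*) bind a short RNA hairpin, the iron-responsive element (IRE). A bound IRE in a 5′ UTR holds back translation, as in ferritin and ferroportin mRNAs, whereas bound IREs in the 3′ UTR of *Tfrc* mRNA protect it from decay. In the kidney, tubule cells recover filtered iron, and copper enters cells through *Slc31a1* (CTR1) and is loaded onto secreted enzymes or exported by the ATPase *Atp7a*.

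IRE matches are shown because IREs are sites through which iron acts on mRNAs. They were found in GENCODE M21 transcripts (GRCm38) by a search of the sense strand for the letters CNNNNNCAGTGNNNNNN, with a loop that does not end in G and with all 5 loop-flanking bases able to pair across the stem, G-U pairs allowed. IREs of any other form are missed, so a gene or stretch without a match may still hold an IRE. Such a match was present in 222 of 21877 protein-coding genes (1.01%) and in 4 of the 9 genes described here, at 7 sites. The capitals mark the 6 bases of the loop.
*Fth1*, 5′ UTR, chr19:9982732-9982760 (+): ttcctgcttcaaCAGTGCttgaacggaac
*Ftl1*, 5′ UTR, chr7:45459779-45459807 (-): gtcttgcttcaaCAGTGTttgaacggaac
*Slc40a1*, 5′ UTR, chr1:45925465-45925493 (-): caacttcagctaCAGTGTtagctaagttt
*Tfrc*, 3′ UTR, chr16:32631219-32631247 (+): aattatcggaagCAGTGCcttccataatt
*Tfrc*, 3′ UTR, chr16:32631598-32631626 (+): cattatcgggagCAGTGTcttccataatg
*Tfrc*, 3′ UTR, chr16:32631663-32631691 (+): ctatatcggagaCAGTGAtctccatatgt
*Tfrc*, 3′ UTR, chr16:32631710-32631738 (+): aattatcgggaaCAGTGTttcccataatt
The *Fth1* and *Ftl1* sites were identical at 26 of 29 bases. The 4 *Tfrc* sites shared 18 to 25 of 29 bases with each other and 9 to 13 with the ferritin sites.

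The values are normalized counts, in which the reads of a gene are divided by 1 size factor per library, and 1 read was worth 0.689 to 1.09 of them. The listed genes held 10263382 to 12248797 reads per library, and up to 3 reads was taken as the floor, which covers counting error only because the reads were amplified by PCR and carry no molecular identifiers. The library labelled *Trf1*+/+ replicate 1 stood apart, with a median of 13.4 normalized counts against 118 to 148 in the others. It also had 8967 genes above 0, against 9733 to 11593. Its *Terf1* value of 0.891 normalized counts, a single read, goes against its label, but a wrong label and low detection were not told apart. The other libraries labelled *Trf1*+/+ had 253 and 235 normalized counts of *Terf1*. Those labelled *Trf1*flox/flox had 110.0, 7.65 and 12.4, so replicate 1 of that label was well above the others. Results are therefore given with all libraries as labelled and, where it matters, without the library labelled *Trf1*+/+ replicate 1. The labels call the cells fibroblasts, but of 8 fibroblast markers only *Col1a2* and *Dcn* were listed, and *Col1a2* had 0 to 1.78 normalized counts in every library. *Dcn* had 0, 0 and 93.6 for *Trf1*+/+ and 0.859, 97.3 and 39.3 for *Trf1*flox/flox mice, so it was above the floor in 3 of 6 libraries. All 7 loop, distal tubule and collecting duct markers were listed, and their summed level was 72919 to 119766 normalized counts in *Trf1*+/+ and 53983 to 153262 in *Trf1*flox/flox libraries. *Slc12a3*, the sodium chloride cotransporter of the distal convoluted tubule, was lower in *Trf1*flox/flox libraries without overlap (25899 to 35066 against 14271 to 18752 normalized counts), as was *Calb1*, a calcium-binding protein of the distal tubule (11368 to 27371 against 1341 to 11124), and neither passed the adjusted test in limma. Of all tested genes, 3.33% were lower without overlap. Of the 7 loop, distal tubule and collecting duct markers, 4 had log2 fold changes above 0 and 3 below, with a median of 0.12. All 7 proximal tubule markers were listed too, with sums of 6245 to 40057 and 14554 to 41949 that overlap and with 6 of 7 log2 fold changes above 0, so RNA of tubule cells was present in every library. The part of the tubule segments in the differences given below was not tested. The single listed endothelial marker, *Pecam1*, was at 0.859 to 12.0 normalized counts, and 3 of 7 macrophage and leukocyte markers were listed, with sums of 280 to 1283 in *Trf1*+/+ and 0 to 2513 in *Trf1*flox/flox libraries. In such bulk samples, fewer cells of a type and less RNA per cell cannot be told apart.

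Per kilobase, ferritin mRNA was the most abundant of the 9 iron and copper transcripts in every library, and neither subunit differed between the genotypes beyond the spread of the libraries. *Fth1*, the heavy subunit that oxidizes iron on its way into the ferritin shell (ENSMUSG00000024661, chr19:9980598-9985098), gave 75648, 50000 and 43209 normalized counts for *Trf1*+/+ and 35284, 34235 and 71979 for *Trf1*flox/flox mice. Both groups contain 1 high library, *Trf1*+/+ replicate 1 and *Trf1*flox/flox replicate 3, and the groups overlap. The log2 fold change, taken here and below as *Trf1*flox/flox minus *Trf1*+/+ on the log2(normalized count + 1) scale, was -0.30 (SE 0.44, adjusted p = 0.981 from limma).

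*Ftl1*, the light subunit that helps the iron core to form (ENSMUSG00000050708, chr7:45457944-45459884), had normalized counts of 40862, 22898 and 27385 in *Trf1*+/+ replicates 1 to 3 and of 18826, 25865 and 39921 in *Trf1*flox/flox replicates 1 to 3. The same 2 libraries were the highest, and the log2 fold change of -0.13 (SE 0.42, adjusted p = 0.990 from limma) was smaller than its error. Of the reads on listed genes, both subunits together took 1.07%, 0.750% and 0.697% in *Trf1*+/+ replicates 1 to 3 and 0.599%, 0.487% and 1.58% in *Trf1*flox/flox replicates 1 to 3. The highest share was thus in *Trf1*flox/flox replicate 3. That library also had the highest summed level of the 6 erythroid markers, 52768 normalized counts against 121 to 10473 in the other libraries, although red cells had been lysed before the sort, and the part of erythroid RNA in its ferritin level was not tested. *Trf1*+/+ replicate 1, the other library with high ferritin, had an erythroid sum of only 239.

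The ratio of the subunits, which does not depend on the size factors, ranged from 1.32 to 2.18 over the 6 libraries. *Fth1* exceeded *Ftl1* 1.85, 2.18 and 1.58 times for *Trf1*+/+ and 1.87, 1.32 and 1.80 times for *Trf1*flox/flox mice, as ratios of normalized counts not corrected for length. The groups overlap, and the mean log2 ratio ± SD of 3 libraries was 0.89 ± 0.23 for *Trf1*+/+ against 0.72 ± 0.28 for *Trf1*flox/flox mice (difference -0.17, exact two-sided permutation p = 0.5). This log2 ratio was taken after adding 1 to each normalized count. With 3 libraries against 3 the smallest p this test can give is 0.1.

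Ferritin has processed copies in the genome, and the submitters' aligner allowed reads to match several places, so the division of reads among copies is uncertain. *Ftl1-ps1* was listed at 162 to 362 normalized counts, *Ftl1-ps2* at 5.91 to 54.6 and *Fth1-ps* at 6.87 to 16.5. All were far below the values of *Fth1* and *Ftl1* themselves.

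*Slc40a1* encodes ferroportin, the only known exporter of iron from mammalian cells (ENSMUSG00000025993, chr1:45908068-45926523). Of the 7 tested genes, it had the lowest log2 fold change in limma with all 6 libraries. That of *Slc11a2* was lower in edgeR, in DESeq2 and without the library labelled *Trf1*+/+ replicate 1. Without *Trf1*+/+ replicate 3, *Aco1* (-0.85) and *Tfrc* (-0.74) were below *Slc40a1* (-0.66). Without *Trf1*flox/flox replicate 2, *Tfrc* (-0.95) was below *Slc40a1* (-0.75). *Slc40a1* gave 346, 742 and 845 normalized counts for *Trf1*+/+ and 285, 258 and 450 for *Trf1*flox/flox mice, a mean of 645 ± 263 against 331 ± 104 (SD, n = 3 each). Only the library labelled *Trf1*+/+ replicate 1 fell within the *Trf1*flox/flox range, and the groups overlap through it. The log2 fold change was -0.90 (SE 0.75, adjusted p = 0.970 from limma), which does not pass the test. Without the library labelled *Trf1*+/+ replicate 1 it was -1.30 (SE 0.63, adjusted p = 0.999 from limma), and the groups no longer overlapped, as for 8.76% of all tested genes in that direction.

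*Tfrc*, the receptor that takes up transferrin-bound iron (ENSMUSG00000022797, chr16:32608920-32632794), had normalized counts of 976, 1288 and 1019 in *Trf1*+/+ replicates 1 to 3 and of 310, 966 and 1016 in *Trf1*flox/flox replicates 1 to 3. A single library, *Trf1*flox/flox replicate 1, was low, while replicates 2 and 3 of that genotype were within or next to the *Trf1*+/+ range. The log2 fold change was -0.69 (SE 0.64, adjusted p = 0.970 from limma).

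*Tfrc* and *Fth1* carry IREs at opposite ends of their mRNAs, so their ratio was also compared. The log2 ratio of *Tfrc* to *Fth1*, taken in the same way, was -6.27, -5.28 and -5.40 for *Trf1*+/+ and -6.83, -5.15 and -6.14 for *Trf1*flox/flox mice. The *Trf1*flox/flox libraries held both the highest and the lowest value, and the mean difference of -0.39 had an exact two-sided permutation p of 0.7. It was 0.0073 without *Trf1*flox/flox replicate 1.

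*Slc11a2*, which encodes DMT1, the transporter that moves ferrous iron across the cell surface and out of endosomes (ENSMUSG00000023030, chr15:100387898-100425072), depended on 1 library. It had 486 and 418 normalized counts in *Trf1*+/+ replicates 2 and 3 but 2.67 in replicate 1, where 3 reads put it at the floor. The *Trf1*flox/flox libraries were close together at 171, 158 and 138. The log2 fold change was 0.78 (SE 1.92, adjusted p = 0.985 from limma) with all libraries and -1.53 (SE 0.86, adjusted p = 0.999 from limma) without the library labelled *Trf1*+/+ replicate 1, so that its sign turned.

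**Figure D1:**
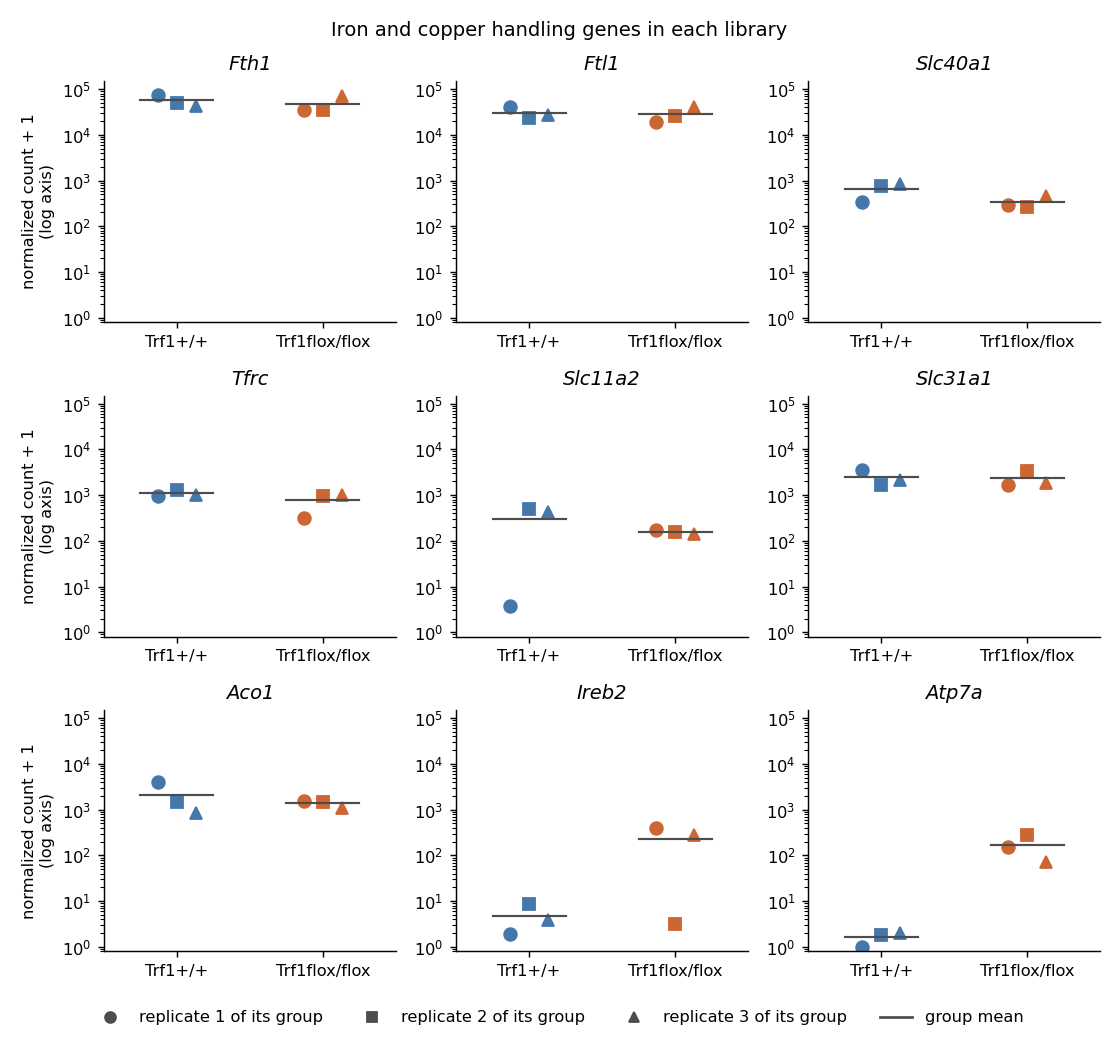
Normalized counts plus 1 on a log axis for the 9 iron and copper genes with a row, by genotype; each symbol is 1 library and each line the group mean of 3 libraries. *Fth1* and *Ftl1* stay between 18826 and 75648 in every library, *Slc11a2* drops to 2.67 in *Trf1*+/+ replicate 1, *Ireb2* is high in only 2 of 6 libraries, and *Atp7a* is at 0 to 0.985 in *Trf1*+/+ and 70.3 to 281 in *Trf1*flox/flox libraries.

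Of the mRNAs of the iron regulatory proteins, *Aco1* was detected in all 6 libraries, whereas *Ireb2* was above 10 normalized counts in 2. *Aco1*, which encodes IRP1, a cytosolic aconitase when it holds an iron-sulfur cluster (ENSMUSG00000028405, chr4:40143081-40198338), gave 4066, 1462 and 835 normalized counts for *Trf1*+/+ and 1547, 1498 and 1074 for *Trf1*flox/flox mice. The *Trf1*+/+ libraries held both the highest and the lowest value, and the log2 fold change was -0.33 (SE 0.61, adjusted p = 0.983 from limma). Leaving out the library labelled *Trf1*+/+ replicate 1 turned it to 0.29.

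*Ireb2*, which encodes IRP2, the regulator that iron removes by protein degradation (ENSMUSG00000032293, chr9:54863789-54912530), had 1, 9 and 3 reads in *Trf1*+/+ replicates 1 to 3, or 0.891, 7.46 and 2.96 normalized counts. In *Trf1*flox/flox replicates 1 to 3 it had 472, 2 and 407 reads, or 406, 2.19 and 280 normalized counts. *Trf1*flox/flox replicate 2 was thus as low as the *Trf1*+/+ libraries, and the groups overlap. *Ireb2* was not tested by itself because fewer than 3 libraries reached 10 normalized counts. The log2 ratio of *Ireb2* to *Aco1*, again with 1 added to each normalized count, was -11.07, -7.43 and -7.72 for *Trf1*+/+ and -1.93, -8.88 and -1.93 for *Trf1*flox/flox mice, a difference of means of 4.50 (exact two-sided permutation p = 0.3). The size of this difference depends on the number added, since *Ireb2* was at the floor in 3 libraries, and it was 4.65 after adding 0.5 and 3.83 after adding 5. In those 3 libraries the ratio is largely set by the number added and by *Aco1*, so this test cannot decide whether the ratio differs between the genotypes.

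**Figure D2:**
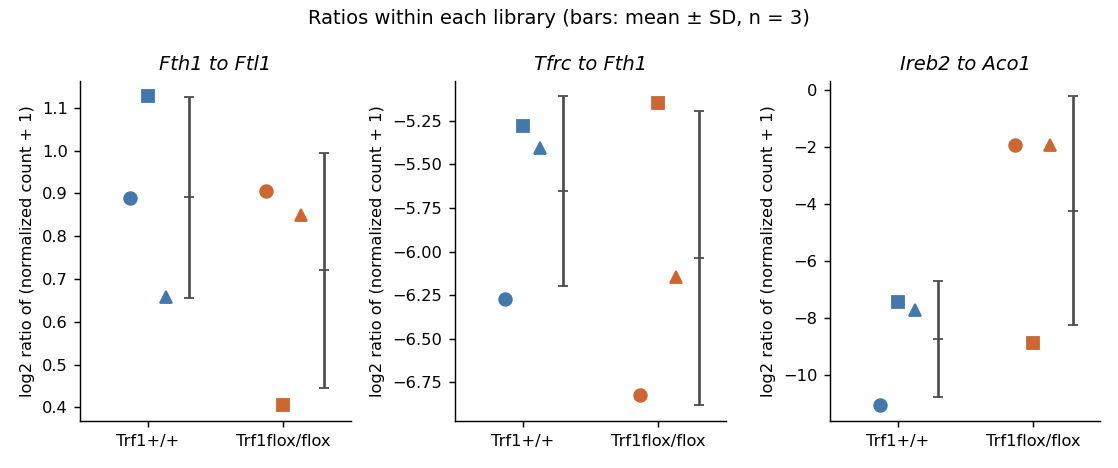
Log2 ratios of normalized counts, each with 1 added, within each library for *Fth1* to *Ftl1*, *Tfrc* to *Fth1* and *Ireb2* to *Aco1*; symbols are libraries (circle, square and triangle for replicates 1, 2 and 3) and bars are the mean ± SD of 3 libraries, with a separate y axis for each ratio. The genotypes overlap in all 3 ratios, and the *Ireb2* to *Aco1* ratio of -8.88 in *Trf1*flox/flox replicate 2 lies among the *Trf1*+/+ libraries.

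The mRNA of the copper importer showed no difference between the genotypes beyond the spread. *Slc31a1*, the high-affinity copper importer CTR1 (ENSMUSG00000066150, chr4:62360727-62391769), had normalized counts of 3623, 1678 and 2133 in *Trf1*+/+ replicates 1 to 3 and of 1706, 3446 and 1849 in *Trf1*flox/flox replicates 1 to 3. Each genotype had 1 library above the others and the groups overlap (log2 fold change -0.09, SE 0.50, adjusted p = 0.992 from limma). *Slc31a1* overlaps *Cdc26* in the annotation, and reads of overlapping genes cannot be told apart by strand in these libraries. *Cdc26* gave 517, 131 and 260 normalized counts for *Trf1*+/+ and 439, 455 and 678 for *Trf1*flox/flox mice.

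*Atp7a*, the copper ATPase of the trans-Golgi network that is mutated in Menkes disease (ENSMUSG00000033792, chrX:106027276-106124926), was chosen for its contrast between the groups. In *Trf1*+/+ replicates 1 to 3 it had 0, 1 and 1 reads, or 0, 0.829 and 0.985 normalized counts. In *Trf1*flox/flox replicates 1 to 3 it had 175, 257 and 102 reads, or 150.4, 281 and 70.3 normalized counts. The groups do not overlap, as for 5.35% of all tested genes in that direction, and all *Trf1*+/+ libraries are at the floor. The reads summed to 534 in *Trf1*flox/flox and 2 in *Trf1*+/+ libraries. These sums only describe the values for which the gene was chosen, and no ratio between them is drawn because the *Trf1*+/+ libraries are at the floor. Apart from the library with a single *Terf1* read, the remaining *Trf1*+/+ libraries had 1 read of *Atp7a* each. The choice of the gene fixed this in advance, so it adds no support for the gap.

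Genes beside *Atp7a* on the X chromosome, chosen after their values were seen, were detected in both genotypes. *Cox7b*, a subunit of cytochrome c oxidase, had 3471 to 9548 normalized counts in *Trf1*+/+ and 4554 to 7337 in *Trf1*flox/flox libraries. *Magt1* had 358 to 1526 and 681 to 1076, *Pgk1* had 2382 to 3834 and 2280 to 3311, and *Atrx* had 1162 to 1452 and 795 to 2440. *Taf9b* had 0, 362 and 0.985 for *Trf1*+/+ and 91.9, 299 and 273 for *Trf1*flox/flox mice, so it was at the floor in *Trf1*+/+ replicates 1 and 3. Of 292 tested X-linked genes, 15 (5.14%) were higher in *Trf1*flox/flox without overlap, and among all tested genes the share was 5.35%. Sex per library is not in the labels: *Xist* had normalized counts of 0, 0.829 and 0.985 in *Trf1*+/+ replicates 1 to 3 and of 1566, 55.7 and 0 in *Trf1*flox/flox replicates 1 to 3. The Y-linked *Ddx3y* had 997, 602 and 781 and then 0, 116 and 291, and *Uty* had 52.6, 159 and 321 and then 2.58, 7.65 and 48.2. The groups overlap for the Y-linked *Eif2s3y*, at 942, 1060 and 1376 and then 0.859, 1138 and 397. They also overlap for *Kdm5d*, at 0.891, 4.14 and 161 and then 4.30, 2.19 and 214. The part of the sex of the mice in the *Atp7a* contrast, and in every other comparison of the genotypes given here, was not tested.

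Among the 5 tested genes most like *Atp7a* over the 6 libraries, by Pearson's r of log2(normalized count + 1), were *Nans* (r = 0.997), *Trac* (0.994), *Gmppb* (0.993) and *Klk1b27* (0.993). Like *Atp7a*, they were at 0 to 1 read in every *Trf1*+/+ library and were above the floor in every *Trf1*flox/flox library. These r values are set by the gap between the groups and are given as a description. *Gmppb* had 273, 303 and 88.2 normalized counts for *Trf1*flox/flox mice, and *Nans* had 105, 228 and 86.8.

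Per kilobase of the principal transcript, and as normalized counts, the medians over the 6 libraries ran from 31194 for *Fth1* and 27505 for *Ftl1* through 536 for *Slc31a1*, 386 for *Aco1*, 204 for *Tfrc*, 118 for *Slc40a1* and 54.5 for *Slc11a2* to 7.27 for *Atp7a* and 0.902 for *Ireb2*. The ranges over libraries of neighbours in this order overlap, except between *Ftl1*, never below 19449, and *Slc31a1*, never above 975. With the length of all merged exons in place of the principal transcript, the median of *Ftl1* (19870) was above that of *Fth1* (13435). On the log2 scale, the SD within groups was 0.49 for *Ftl1*, 0.52 for *Fth1*, 0.56 for *Slc31a1*, 0.58 for *Slc40a1*, 0.70 for *Tfrc* and 0.84 for *Aco1*. It was 2.84 for *Slc11a2* and 2.86 for *Ireb2*, against a median of 2.17 over all tested genes.

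Across the 7 tested genes, 6 were lower and 1 was higher in *Trf1*flox/flox libraries, with a median log2 fold change of -0.30 against 0.20 over all 9966 tested genes. This split changed to 4 lower and 3 higher with upper quartile scaling or without the library labelled *Trf1*+/+ replicate 1, and to 7 lower and 0 higher in edgeR. The median of all tested genes moved as well, to 0.44, -0.02 and -0.04 in these settings. None passed an adjusted p of 0.05 in limma, where 0% of all tested genes did, and none had an unadjusted p under 0.05, where 312 genes (3.13%) did. edgeR called 0% of genes at an adjusted p of 0.05 and 196 (1.97%) at an unadjusted p of 0.05. DESeq2 called 58 genes (0.582%) at an adjusted p of 0.05 and 410 (4.11%) at an unadjusted p of 0.05, and none of the 7 was among the 58. No gene of the 7 had groups that did not overlap, and the share over all tested genes was 8.68%. Without the library labelled *Trf1*+/+ replicate 1, *Tfrc*, *Slc11a2* and *Slc40a1* were lower in *Trf1*flox/flox libraries without overlap, as were 8.76% of all tested genes, and *Tfrc* only by 1019 against 1016 normalized counts. Without *Trf1*flox/flox replicate 3, *Fth1*, *Tfrc* and *Slc40a1* were lower without overlap, as were 7.68% of all tested genes. *Tfrc* and *Slc40a1* were thus parted in both cases, *Tfrc* in the second again narrowly, by 976 against 966 normalized counts. Leaving out any other single library parted none of the 7 genes. For *Slc40a1*, the libraries left out in the cases above, at 346 and 450 normalized counts, were those through which its groups overlapped.

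**Figure D3:**
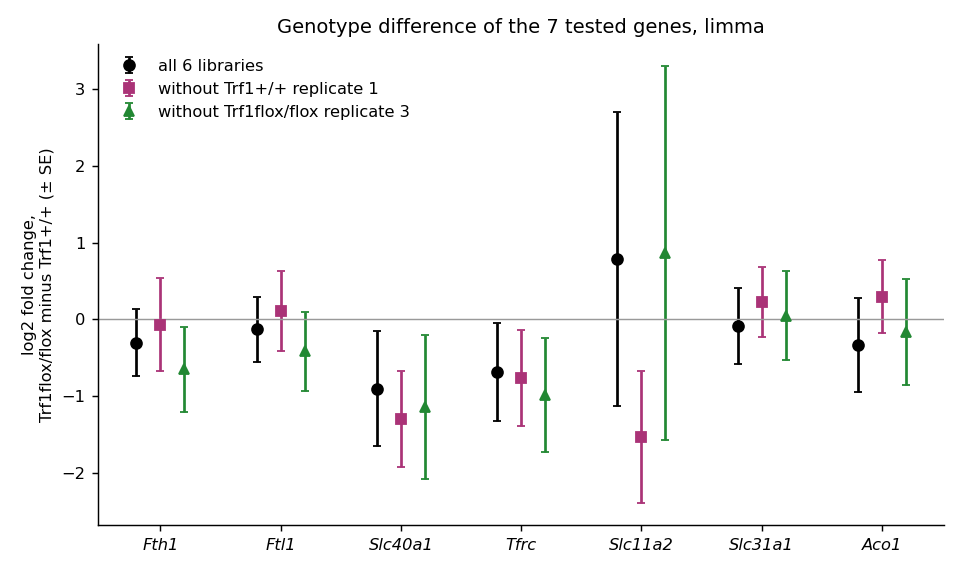
Log2 fold change, *Trf1*flox/flox minus *Trf1*+/+, with its standard error from limma for the 7 tested genes with all 6 libraries, without *Trf1*+/+ replicate 1 and without *Trf1*flox/flox replicate 3. *Slc40a1*, *Tfrc* and *Fth1* are below 0 in all 3 fits (*Slc40a1* -0.90, -1.30 and -1.15, *Fth1* -0.30, -0.07 and -0.65). *Slc11a2* moves from 0.78 to -1.53 when *Trf1*+/+ replicate 1 is left out. Of the fits that leave out 1 library, only those shown had any of the 7 genes without overlap.

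The wider iron and copper pathways were described from 6 lists of 127 gene symbols, of which 97 were listed and 83 tested. Some genes were entered under more than 1 symbol, so the lists named fewer than 127 genes. Higher values in *Trf1*flox/flox libraries were found for 37 genes and lower values for 46, with a median log2 fold change of -0.13, 0 passed an adjusted p of 0.05 in limma, and 1 had an unadjusted p under 0.05. Groups did not overlap for 6 of the 83 genes, 3 higher and 3 lower, where 5.35% of all tested genes were higher and 3.33% lower without overlap. The split of the 83 genes was 45 higher and 38 lower with upper quartile scaling, where none was lower without overlap, and 34 higher and 49 lower in edgeR. Without the library labelled *Trf1*+/+ replicate 1 it was 37 higher and 44 lower among 81 tested genes, and 0 had an unadjusted p under 0.05. The list medians below shifted between settings, as did the median of all tested genes. The latter was 0.44 with upper quartile scaling, -0.02 without that library and -0.04 in edgeR.

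In iron transport and release, 12 genes were tested, 9 higher and 3 lower, with a median log2 fold change of 0.93. *Steap3*, the endosomal ferrireductase, gave 0.891, 0.829 and 79.8 normalized counts for *Trf1*+/+ and 121, 254 and 22.7 for *Trf1*flox/flox mice. *Mcoln1*, a lysosomal cation channel that releases iron, had 20.5, 18.2 and 346 and then 389, 671 and 218, and *Slc46a1*, a folate and heme transporter, had 0, 17.4 and 77.8 and then 27.5, 611 and 81.3. In each of the 3 genes *Trf1*+/+ replicate 3 reached into the *Trf1*flox/flox range, and none passed the test.

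In iron sensing and ferritin turnover, 11 genes were tested, 7 higher and 4 lower, with a median of 0.46, and the median turned to -0.54 without the library labelled *Trf1*+/+ replicate 1 and to -0.28 in edgeR. *Fbxl5*, the iron-sensing ubiquitin ligase subunit that degrades IRP2, had normalized counts of 1213, 877 and 482 in *Trf1*+/+ replicates 1 to 3 and of 495, 178 and 486 in *Trf1*flox/flox replicates 1 to 3 (log2 fold change -1.19, SE 0.74, adjusted p = 0.970 from limma). *Pcbp1*, an iron chaperone that delivers iron to ferritin, had 118, 635 and 756 and then 847, 1035 and 666. *Herc2*, which targets the ferritin receptor NCOA4, had 0, 176 and 109 and then 446, 78.7 and 248, and the groups overlap for all 3.

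In mitochondrial iron and iron-sulfur cluster assembly, 28 genes were tested, 11 higher and 17 lower, with a median of -0.40 that moved to -0.04 without the library labelled *Trf1*+/+ replicate 1 and to -0.12 with upper quartile scaling. *Iba57*, a late factor of mitochondrial cluster assembly, gave 0, 0.829 and 0.985 normalized counts for *Trf1*+/+ and 18.9, 15.3 and 31.0 for *Trf1*flox/flox mice, and it was the gene with an unadjusted p under 0.05 (adjusted p = 0.970 from limma). Like *Atp7a*, it passed the filter only through the group in which it is high, so it had to differ. *Mms19*, a factor of cytosolic cluster targeting, had 0.891, 0 and 36.46 and then 87.6, 59.0 and 36.52, so its groups were parted only narrowly. *Glrx5*, the mitochondrial glutaredoxin that passes clusters on, had 1156, 1787 and 1089 and then 523, 934 and 1065, lower without overlap but by a narrow gap. *Nfu1*, a cluster carrier, had 2580, 701 and 787 and then 247, 521 and 868, with overlap.

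In copper chaperones, buffering and transport, 15 genes were tested, 6 higher and 9 lower, with a median of -0.31, which was -0.05 without the library labelled *Trf1*+/+ replicate 1 and -0.03 with upper quartile scaling. *Xiap*, a ubiquitin ligase that acts on the copper chaperone CCS, had normalized counts of 0.891, 412 and 338 in *Trf1*+/+ replicates 1 to 3 and of 880, 721 and 485 in *Trf1*flox/flox replicates 1 to 3, higher without overlap. *Cox19*, a copper protein of cytochrome c oxidase assembly, had 878, 433 and 492 and then 363, 327 and 417, lower without overlap. The metallothioneins, which bind surplus copper and zinc, overlapped between the groups, with *Mt1* at 5115, 7430 and 2872 and then 2737, 3636 and 3837 and *Mt2* at 170, 551 and 379 and then 116, 152 and 205. None of these genes passed the test.

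In the COMMD complex, which traffics ATP7A and ATP7B between membranes, 12 genes were tested, 3 higher and 9 lower, with a median of -0.22. It became 0.06 with upper quartile scaling, which moved the median of all tested genes from 0.20 to 0.44. *Commd7* gave 832, 621 and 383 normalized counts for *Trf1*+/+ and 341, 119 and 329 for *Trf1*flox/flox mice, lower without overlap. *Commd1* (428 to 607 and 541 to 790) and *Commd3* (1364 to 1669 and 885 to 1410) overlapped. Among copper-dependent enzymes 5 genes were tested, 1 higher and 4 lower, with a median of -0.25. With upper quartile scaling it became 0.02, again beside 0.44 over all tested genes. *Sod1*, the cytosolic superoxide dismutase, had 608 to 804 and 281 to 958, *Sod3*, its secreted counterpart, had 463 to 1780 and 765 to 2299, and *Pam*, which amidates peptide hormones, had 905 to 1282 and 448 to 1796 normalized counts in *Trf1*+/+ and *Trf1*flox/flox libraries.

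**Figure D4:**
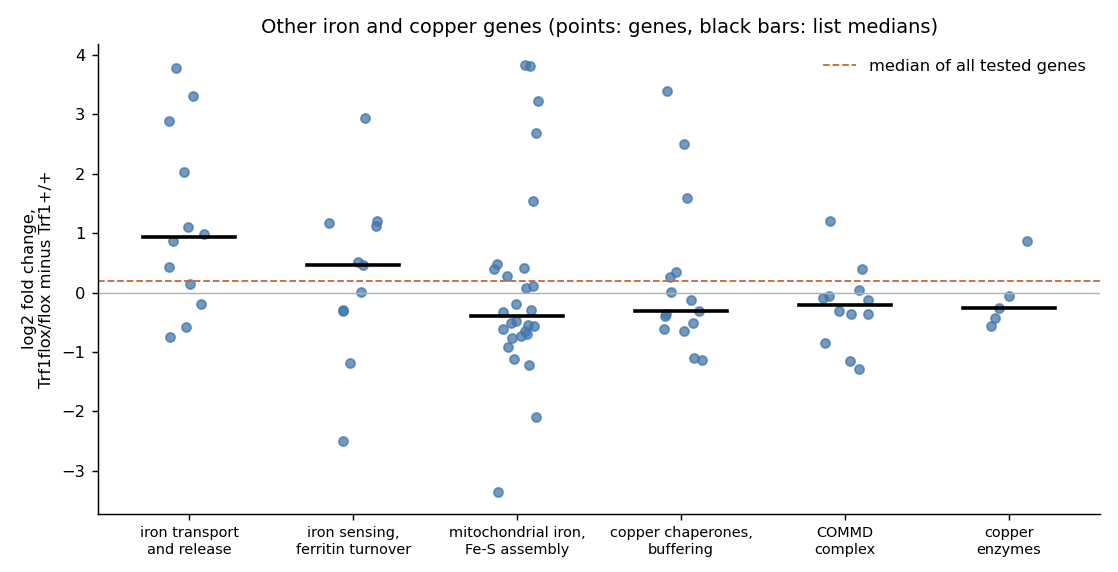
Log2 fold change of each tested gene of the 6 iron and copper lists, *Trf1*flox/flox minus *Trf1*+/+; points are genes, black bars the list medians and the dashed line the median of all tested genes (0.20). With all 6 libraries, medians run from -0.40 for mitochondrial iron and iron-sulfur cluster assembly to 0.93 for iron transport and release, and no gene passed the adjusted test in limma.

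Over all protein-coding genes with an IRE-like match, no gene passed the test. Of the 222 genes, 115 were tested, 64 higher and 51 lower, with a median log2 fold change of 0.29 against 0.20 over all tested genes. Their groups did not overlap for 8 genes, where the share over all tested genes was 8.68%, and 0 passed the adjusted test in limma.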

How the data were processed

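The members and gene lists were chosen with earlier results of these data known. Per the labels, reads were aligned with TopHat2 2.0.10 (Bowtie 1.0.0, SAMtools 0.1.19), checked with FastQC 0.11.7, counted with HTSeq 0.6.1 and normalized with DESeq2. The paper's methods name GRCm38 and the submitters' processing notes GRCm39. The deposited values are normalized counts, a signal per gene made by the authors from read counts divided by 1 size factor per library. All values (100%) were whole multiples of 1 read to within 0.001 reads, so reads were recovered from the deposited counts. Gene symbols were matched to GENCODE M21 (11911 of 12125, 98.2%), which gave all coordinates, lengths and IRE sequences.

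Genes that reached 10 normalized counts in 3 or more libraries were tested on log2(value + 1) with limma 3.58.1 (R 4.3.3), with Benjamini-Hochberg adjustment over all tested genes and no covariates. The 3 ratios were compared by exact two-sided permutation tests, with no adjustment over the 3. Alternatives were upper quartile scaling, pseudocounts of 0.5 and 5, no filter, edgeR 4.0.16 and DESeq2 1.42.0 on the recovered reads, and leaving out each library. Genes of the pathway lists were named if they were among the 3 with the smallest p of their list or if their groups did not overlap. The labels give no batch and name no animals, the paper describes the samples of a group as separate mice, and p-values measure the spread between these samples. Scripts were tested on simulated data. Of the 5 tested genes with the highest Pearson r with *Atp7a*, 1 is not reported here.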

Additional observations from a re-analysis of the deposited data

How the results depend on the processing

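No gene of the 7 passed an adjusted p of 0.05 under any alternative. Over all genes, DESeq2 called 58 where limma called 0. The genes whose groups did not overlap numbered 865 with all libraries and 1373 to 2286 when 1 library was left out, and among the 7 genes 0 to 3. The difference in the *Tfrc* to *Fth1* log2 ratio was 0.0073 without *Trf1*flox/flox replicate 1 and ran from -0.83 to 0.0073 when 1 library was left out. The log2 fold change of *Ftl1* turned to 0.15 with upper quartile scaling, 0.10 without *Trf1*+/+ replicate 1 and 0.12 without *Trf1*flox/flox replicate 1. That of *Slc31a1* turned to 0.19, 0.23 and 0.10 under the same alternatives and to 0.05 without *Trf1*flox/flox replicate 3. That of *Aco1* turned to 0.29 without *Trf1*+/+ replicate 1. That of *Slc11a2* turned to -1.53 without *Trf1*+/+ replicate 1, -1.02 in edgeR and -0.96 in DESeq2. When 1 library was left out, *Ftl1* ran from -0.42 to 0.12, *Slc11a2* from -1.53 to 1.99, *Aco1* from -0.85 to 0.29 and *Slc31a1* from -0.40 to 0.23. Upper quartile scaling multiplies each library by 1 factor, so genes with many reads moved up together. *Fth1* went from -0.303 to -0.025, *Ftl1* from -0.133 to 0.146, *Aco1* from -0.332 to -0.053 and *Slc31a1* from -0.085 to 0.194. The cause of the turns under the other alternatives was not tested, except that *Slc11a2* is at 3 reads in *Trf1*+/+ replicate 1. *Fth1*, *Tfrc* and *Slc40a1* were lower in *Trf1*flox/flox under every alternative, with log2 fold changes from -0.65 to -0.02, -0.99 to -0.13 and -1.30 to -0.63. *Fth1* was nearest to 0 with upper quartile scaling and, at -0.07, without *Trf1*+/+ replicate 1, and *Tfrc* without *Trf1*flox/flox replicate 1. Upper quartile scaling moved the median of all genes from 0.20 to 0.44, and without *Trf1*+/+ replicate 1 it was -0.02. No paired analysis was possible because replicate numbers follow the order of the samples and pair no mice. *Atp7a* and *Ireb2* are at the floor of 3 reads in 3 libraries each, and depth was similar in all libraries. The counts of the pathway lists under other settings were added after seeing the data.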
